A study of Mus musculus with 6 samples.

Results

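The CpGs of the 4 mouse Hox clusters were followed in chemical iPSCs (C-iPSCs), in iPSCs made with Oct4, Sox2, Klf4 and c-Myc (4F-iPSCs), and in mouse embryonic stem cells (mESCs). A CpG was taken when it lay in 1 of 4 windows of mm10 and had at least 10 reads, summed over the replicates, in each of the 3 cell types. The windows were HoxA at chr6:52150000-52265000, HoxB at chr11:96190000-96375000, HoxC at chr15:102915000-103045000 and HoxD at chr2:74660000-74770000. This gave 3222 CpGs of the 1106981 that had the reads in the whole series. HoxA held 926 of them, HoxB 764, HoxC 630 and HoxD 902. They are 25.3% of the 12731 CG dinucleotides of the 4 windows, of which 3745 had a read in at least 1 library. RRBS reads only CpGs near MspI sites, and the read minimum removed others. Methylation level was not used to choose the 3222 CpGs.

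Hox genes encode homeodomain transcription factors that give cells of the embryo their position along the body axis. In mammals they stand in 4 clusters, where the order of the genes follows the order of their expression from anterior to posterior. Genes at the same place in different clusters are paralogs and carry the same number. In pluripotent cells the clusters are held silent by Polycomb complexes, and their many CpG islands are known as long stretches of unmethylated DNA. MspI cuts CCGG, which is dense in such islands, and RRBS keeps the short fragments, so it is rich in them.

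Each cell type had 2 libraries, labelled replicates 1 and 2, 6 in all. The C-iPSCs came from OG2-MEFs, mouse embryonic fibroblasts, through small molecules, with no reprogramming factor added. Their stage 2 medium held 5-Aza-2′-deoxycytidine, and its part in the methylation of these cells was not tested. OG2 cells carry a green fluorescent reporter of Oct4. The 4F-iPSCs came from OG2-MEFs infected with retroviruses for the 4 factors. The mESCs were the E14 line. All were labelled male and were grown with LIF and 2i, the inhibitors CHIR99021 and PD0325901, which lower methylation in pluripotent cells. The iPSCs were at passages 5 to 10 and the mESCs at passages 20 to 30, and feeder cells were removed before collection. Colonies were picked and expanded, and the labels do not say whether the replicates were separate clones, so p-values here measure only the spread between these libraries, which may be technical. The mice behind the OG2-MEFs were of the strains C57BL/6J, 129S4/SvJaeJ and CBA/CaJ. Passage, genetic background and reprogramming therefore cannot be told apart in a comparison with mESCs, and a C-to-T difference between strains would read as a lost methyl group.

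The libraries held between 53694199 and 96534037 reads on CpGs, and the median Hox CpG had 99 summed reads for mESCs, 134 for C-iPSCs, and 139 for 4F-iPSCs. The share of methylated calls on mitochondrial DNA ran from 3.12% to 7.90%, with the highest share in 4F-iPSC replicate 2 and 5.39% and 5.38% in mESC replicate 1 and C-iPSC replicate 2. Values of a few percent at Hox promoters are of that size. Of the pluripotency genes, the promoter of Pou5f1 (7 CpGs) was between 6.26% and 22.4%, that of Zfp42 (7 CpGs) between 4.13% and 15.7%, and that of Nanog (2 CpGs) between 0% and 12.1% in the 6 libraries. Dppa3 and Tdgf1 had no CpG with the reads.

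The sequences below are shown because they hold the runs of neighboring CpGs that differed strongly between cell types. They are stretches with at least 3 CpGs whose level was much higher in 4F-iPSCs than in mESCs, with no more than 300 bases from one to the next. Of 8 such runs 7 are shown, and the eighth lies in a UTR. Sequences are from GRCm38, plus strand, and capitals mark the strongly hypermethylated CpGs. A stretch of the Hoxd11 promoter, low in every library, follows them for contrast, with all its measured CpGs in capitals.
Between Hoxb13 and Hoxb9, chr11:96231310-96231406: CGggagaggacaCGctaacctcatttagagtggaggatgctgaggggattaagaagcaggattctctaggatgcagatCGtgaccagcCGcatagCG
Gm11539, chr11:96248802-96248933: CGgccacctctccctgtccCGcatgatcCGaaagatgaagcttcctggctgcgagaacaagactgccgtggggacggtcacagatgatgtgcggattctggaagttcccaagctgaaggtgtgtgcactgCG
Upstream of Hoxb9, chr11:96269155-96269212: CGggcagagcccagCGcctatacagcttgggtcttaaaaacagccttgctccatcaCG
Hotair, chr15:102945671-102945865: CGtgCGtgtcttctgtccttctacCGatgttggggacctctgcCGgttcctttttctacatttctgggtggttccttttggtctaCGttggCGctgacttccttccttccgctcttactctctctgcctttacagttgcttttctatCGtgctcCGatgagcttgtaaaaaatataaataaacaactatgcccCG
Upstream of Hoxc10, chr15:102965813-102966060: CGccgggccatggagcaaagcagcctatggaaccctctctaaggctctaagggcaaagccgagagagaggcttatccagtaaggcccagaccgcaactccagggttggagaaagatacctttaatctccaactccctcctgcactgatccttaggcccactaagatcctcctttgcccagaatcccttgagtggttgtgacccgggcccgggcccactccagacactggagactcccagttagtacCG
Upstream of a Hoxd3 start, chr2:74738736-74739011: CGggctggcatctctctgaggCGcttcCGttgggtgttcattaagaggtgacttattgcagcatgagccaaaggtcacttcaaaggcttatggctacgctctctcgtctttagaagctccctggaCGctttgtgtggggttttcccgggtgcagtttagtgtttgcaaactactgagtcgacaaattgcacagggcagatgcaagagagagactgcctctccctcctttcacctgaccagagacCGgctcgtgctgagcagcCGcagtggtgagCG
Near Hoxa6, chr6:52209440-52209646: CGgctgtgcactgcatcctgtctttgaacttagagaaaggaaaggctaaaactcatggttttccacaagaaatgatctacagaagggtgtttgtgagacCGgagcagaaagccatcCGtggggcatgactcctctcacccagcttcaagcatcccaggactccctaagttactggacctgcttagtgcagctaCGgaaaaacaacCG
Hoxd11 promoter, chr2:74681981-74682178: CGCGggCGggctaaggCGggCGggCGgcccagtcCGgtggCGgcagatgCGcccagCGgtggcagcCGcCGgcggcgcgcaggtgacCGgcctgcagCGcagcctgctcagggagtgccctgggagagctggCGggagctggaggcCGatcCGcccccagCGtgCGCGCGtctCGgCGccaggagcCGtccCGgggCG
The Hoxc10 and Hoxd3 runs are longer than 300 bases, and the part with most strongly hypermethylated CpGs is printed. The Hoxd11 stretch holds 29 CpGs in 198 bases, whereas the Hoxa6 run holds 5 in 207 and the run between Hoxb13 and Hoxb9 holds 5 in 97.

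The Hox CpGs were weakly methylated in all 3 cell types. The mean level over CpGs was 6.96% and 6.76% in the mESC libraries, 7.48% and 9.99% in the C-iPSC libraries, and 10.0% and 11.6% in the 4F-iPSC libraries. All values of 1 cell type were apart from those of the next, but 4F-iPSC replicate 1 stood only just above C-iPSC replicate 2. The means were 6.86% ± 0.146 for mESCs, 8.73% ± 1.78 for C-iPSCs, and 10.8% ± 1.09 for 4F-iPSCs (SD, n = 2). With 2 libraries against 2, the two-sided exact permutation test cannot give a p below 0.333, and each of the 3 comparisons of cell types gave that value. The spread between the C-iPSC libraries was about as large as the 1.87 points that separated C-iPSCs from mESCs. That difference was 3.202 points without C-iPSC replicate 1 and 0.626 points without replicate 2. The 2.08 points between 4F-iPSCs and C-iPSCs became 0.720 and 3.325 points respectively, and 1.31 points without 4F-iPSC replicate 2.

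Most single CpGs were close to zero. The median Hox CpG had a level of 1.74% for mESCs, 2.06% for C-iPSCs, and 2.36% for 4F-iPSCs. In mESCs 3048 of the 3222 CpGs were low (under 30%), 173 were intermediate and 1 was high (80% or more). In 4F-iPSCs 2900 were low, 282 intermediate and 40 high, and C-iPSCs lay between with 2977, 234 and 11. The rest of the compared CpGs were distributed otherwise, with 2.68% high for mESCs, 12.5% for C-iPSCs, and 24.8% for 4F-iPSCs. Among Hox CpGs 1.24% were high in 4F-iPSCs.

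**Figure D1:**
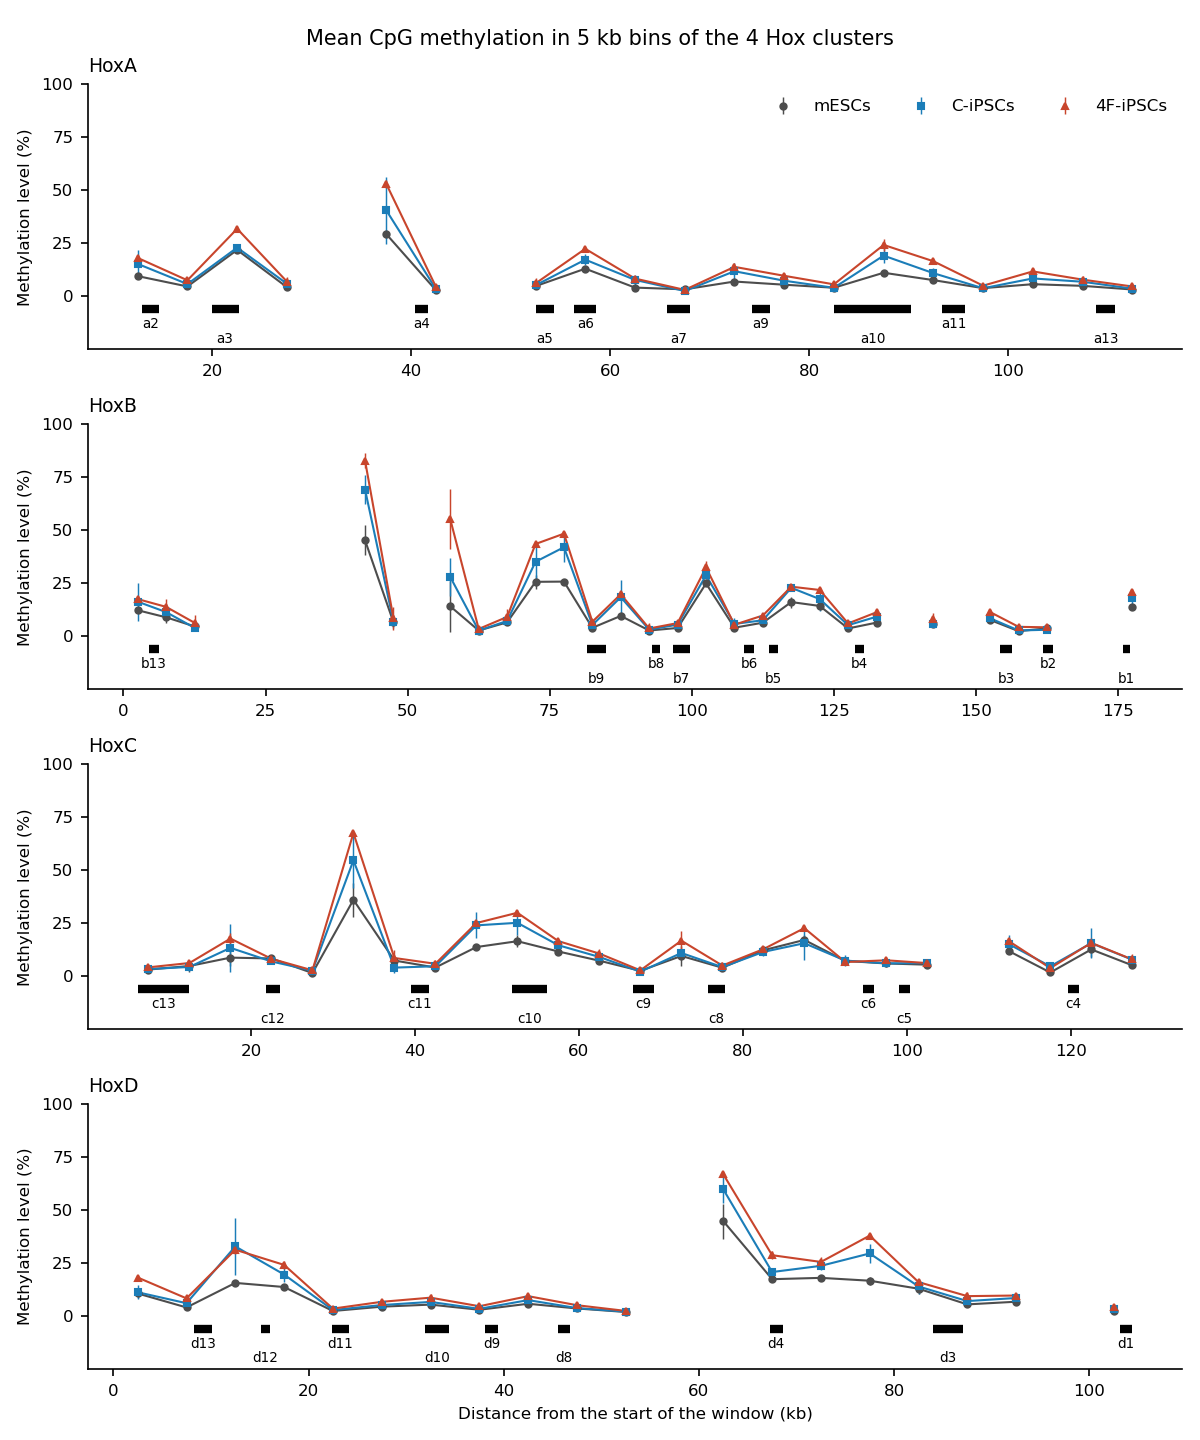
Mean methylation level (%) of the measured CpGs in bins of 5 kb against the distance from the start of each window (kb), for mESCs, C-iPSCs and 4F-iPSCs. Points are means of 2 libraries, bars are SD, lines join neighboring bins that hold at least 3 CpGs, and black blocks are the coding spans of the Hox genes shown. In 4F-iPSCs 49 of 89 bins (1 of them not drawn) were under 10%, and the peaks lay between Hoxb13 and Hoxb9, between Hoxc12 and Hoxc11, around Hoxd4 and Hoxd3, and at the 3′ end of Hoxa4.

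Along the clusters, most bins were low and a few stood out. Of 89 bins of 5 kb with at least 3 CpGs, 60 were under 10% in mESCs and 49 in 4F-iPSCs, and 8 and 22 bins respectively reached 20%. The highest bin was in HoxB between Hoxb13 and Hoxb9 (8 CpGs), with 45.3% ± 7.13 for mESCs, 69.3% ± 7.04 for C-iPSCs, and 82.9% ± 3.51 for 4F-iPSCs. In HoxC the bin that holds Hotair, a long non-coding RNA gene of that cluster, had 36.0% ± 8.13, 54.7% ± 12.9 and 67.5% ± 0.0678 (17 CpGs). In HoxD the bin at the first exon of Hoxd4 had 44.8% ± 8.26, 59.8% ± 6.43 and 66.9% ± 1.05 (11 CpGs). HoxA had its highest bin at and beyond the 3′ end of Hoxa4, inside the long Hoxa3 gene, with 29.4% ± 2.01, 40.6% ± 15.9 and 53.0% ± 1.69 (7 CpGs). Each cluster thus had at least 1 bin above 50% in 4F-iPSCs beside bins of a few percent.

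The 4 clusters did not have the same level. HoxA was lowest, with library means of 5.54% and 5.15% for mESCs, 5.62% and 8.08% for C-iPSCs, and 7.94% and 9.50% for 4F-iPSCs. HoxB was highest in 5 of 6 libraries, with 8.39% and 7.78%, 9.04% and 12.1%, and 12.3% and 13.7%. HoxC had 7.90% and 7.99%, 8.16% and 11%, and 10.5% and 12.4%. HoxD had 6.55% and 6.67%, 7.59% and 9.54%, and 10.0% and 11.4%. HoxA was below each of the other clusters in 6 of 6 libraries, with mean differences of -3.575 points to HoxB, -2.68 to HoxC and -1.66 to HoxD. HoxB exceeded HoxD by 1.91 points and HoxC exceeded HoxD by 1.018 points, again in 6 of 6 libraries. An exact sign-flip test over the 6 libraries gave p = 0.03125 for these 5 pairs, the smallest it can give, and 0.0375 after Benjamini-Hochberg adjustment over the 6 pairs. With pooled reads HoxC minus HoxD was only 0.464 points (adjusted p = 0.0625, exact sign-flip test) and on the plus strand 0.280 points (adjusted p = 0.25). HoxA minus HoxC was -1.65 points with pooled reads (adjusted p = 0.0375, exact sign-flip test). HoxB exceeded HoxC by 0.895 points, in 5 of 6 libraries (adjusted p = 0.0625, exact sign-flip test). HoxB minus HoxC was 1.355 points without C-iPSC replicate 1 and 0.690 points without 4F-iPSC replicate 1. That difference was 2.37 points with pooled reads (adjusted p = 0.0375, exact sign-flip test), and it also passed the threshold at 5 reads, on the minus strand and at CpGs with 10 reads in all libraries. The libraries share cell types, so this test speaks of these 6 libraries.

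The order was then compared within promoters and outside them, a split of this comparison that was chosen after the data were seen. A CpG was called a promoter CpG when it lay within 1 kb of any annotated transcript start, as 75.7% of the HoxA and 80.2% of the HoxD CpGs did but only 47.6% in HoxB and 51.0% in HoxC. Among promoter CpGs the order was the same, with means over the 6 libraries of 5.49% in HoxA, 8.16% in HoxB, 7.77% in HoxC and 7.19% in HoxD. Outside promoters HoxD was the highest with 14.4%, above HoxB (12.6%), HoxC (11.6%) and HoxA (11.6%) in 6 of 6 libraries (adjusted p = 0.0469 for each, exact sign-flip test over the 6 pairs). No difference between HoxA and HoxC was detected there, with a mean difference of -0.00889 points that ranged from -1.89 to 1.16 (adjusted p = 1, exact sign-flip test). The interval of 74.0 kb between Hoxb13 and Hoxb9 held 140 of the HoxB CpGs at 15.0% for mESCs, 21.3% for C-iPSCs, and 26.6% for 4F-iPSCs. Without them, a setting chosen after the data were seen, HoxB minus HoxC was -1.52 points (adjusted p = 0.0375, exact sign-flip test) and HoxB minus HoxD -0.505 points (adjusted p = 0.0625). HoxA minus HoxB was then -1.16 points (adjusted p = 0.0375, exact sign-flip test).

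**Figure D2:**
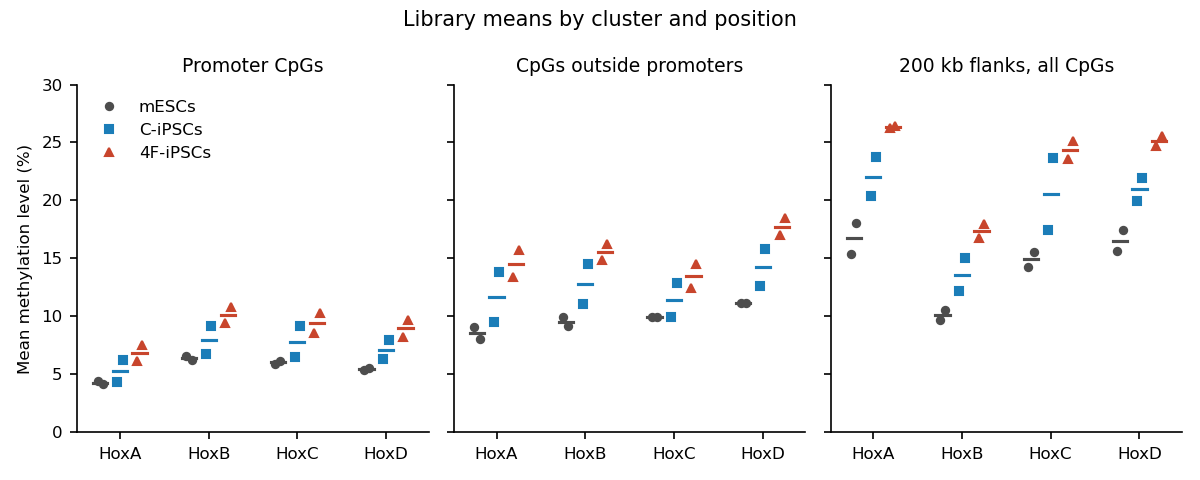
Mean methylation level (%) of each library in the 4 clusters, for promoter CpGs, for CpGs outside promoters and for the 200 kb on each side of the windows. Points are libraries and bars are the means of 2 libraries of a cell type. HoxA is lowest among promoter CpGs and HoxD is highest outside promoters.

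Promoter CpGs were less methylated than the others. The 2109 promoter CpGs had 5.35% and 5.32% for mESCs, 5.76% and 7.77% for C-iPSCs, and 7.81% and 9.25% for 4F-iPSCs. The 1113 others had 10.0% and 9.46%, 10.7% and 14.2%, and 14.3% and 16.0%. The promoter minus other difference was -5.56 points on average and in 6 of 6 libraries (exact sign-flip p = 0.03125), and the same held in each cluster, with differences from -3.85 points in HoxC to -7.19 in HoxD. With promoters taken from 2 kb before to 0.5 kb after a start, the difference over all Hox CpGs was -2.02 points (6 of 6 libraries, exact sign-flip p = 0.03125). By distance from the nearest start, 4F-iPSC levels were 7.79% ± 1.20 within 250 bases, 6.53% ± 0.889 from 250 to 500, 11.3% ± 0.929 from 500 to 1000 and 15.5% ± 1.23 from 1000 to 2000 (SD, n = 2). Beyond that they did not go on increasing, with 14.7% ± 1.08 from 2000 to 4000 bases and 15.1% ± 1.60 farther away. By class, CpGs in UTRs outside promoters had 15.8% ± 0.0816 in 4F-iPSCs, other exons 11% ± 1.33, introns 14.3% ± 1.30 and intergenic DNA 19.3% ± 1.57. HoxB intergenic CpGs were at 27.5% ± 1.42 and HoxC exonic CpGs outside promoters and UTRs at 5.12% ± 1.44.

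The DNA around the windows had a higher mean level, and its measured CpGs stood in DNA of lower CpG density, with a median observed to expected ratio (500 bases around each CpG) of 0.650 beside 0.740 for the Hox CpGs. The 1262 CpGs in the 200 kb on each side had 13.1% and 14.6% for mESCs, 16.6% and 20.2% for C-iPSCs, and 21.8% and 22.8% for 4F-iPSCs. They exceeded the Hox CpGs by 9.38 points on average, from 6.12 to 11.8 in single libraries (6 of 6, exact sign-flip p = 0.03125). The gap was 14.7 points for HoxA, 12.3 for HoxD, 10.3 for HoxC and 3.16 for HoxB, with promoter CpGs included on both sides. Outside promoters the flanks exceeded the Hox CpGs by 13.7 points, and by 18.4 for HoxA, 17.6 for HoxB, 10.8 for HoxD and 9.76 for HoxC, whereas promoters differed by 0.457 points (6 of 6 libraries each, exact sign-flip p = 0.03125). The larger gap was thus outside promoters.

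The split by promoters was also seen against the rest of the series. Promoter CpGs elsewhere (576869) had 4.96% ± 0.0573 for mESCs, 5.99% ± 0.966 for C-iPSCs, and 7.53% ± 1.22 for 4F-iPSCs, and their level minus that of Hox promoter CpGs was -0.715 points on average (lower in 6 of 6 libraries, exact sign-flip p = 0.03125). CpGs outside promoters elsewhere (526890) had 40.01% ± 2.9, 52.9% ± 5.42 and 62.5% ± 0.695, and those of the Hox clusters were lower by 39.4 points on average. Between 4F-iPSCs and mESCs the difference outside promoters was 5.42 points in the Hox clusters and 22.5 points elsewhere, and in promoters it was 3.196 and 2.57 points. In each cell type the library with more methylated calls on mitochondrial DNA also had the higher mean at Hox promoters, and the part of those calls in the promoter differences was not tested.

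CpG density was then compared in full, as the observed to expected ratio in the 500 bases around each CpG. The median was 0.740 for Hox CpGs and 0.657 for all other compared CpGs, and HoxD (0.802) and HoxA (0.796) were denser than HoxB (0.704) and HoxC (0.681). At a ratio of 0.75 or more the Hox CpGs (1551) were at 3.01% ± 0.277 in mESCs and 4.38% ± 1.13 in 4F-iPSCs, beside 3.28% ± 0.136 and 4.58% ± 1.10 for the others. The dense Hox CpGs were lower in 6 of 6 libraries, by a small amount that was not tested. At a ratio from 0.25 to 0.5 the 391 Hox CpGs were at 17.6% ± 0.216 for mESCs, 24.4% ± 4.61 for C-iPSCs, and 29.5% ± 1.5 for 4F-iPSCs, beside 42.6% ± 3.42, 57.1% ± 6.25 and 67.2% ± 0.594 elsewhere. From 0.5 to 0.75 the values in 4F-iPSCs were 11.4% ± 0.941 and 26.1% ± 1.23. In these classes too the Hox CpGs were lower than the rest of the series. The flanks of the windows were nearer to them. In 4F-iPSCs the flanks were at 4.38% ± 1.19 at a ratio of 0.75 or more and at 12.1% ± 0.606 from 0.5 to 0.75, about level with the Hox CpGs, but at 54.4% ± 0.0337 from 0.25 to 0.5. Across the 3222 CpGs, level and ratio had a Spearman correlation of -0.456 in mESCs and -0.493 in 4F-iPSCs, against -0.717 and -0.734 across the others. Neighboring CpGs share reads and bases, so these correlations are descriptions without a test.

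**Figure D3:**
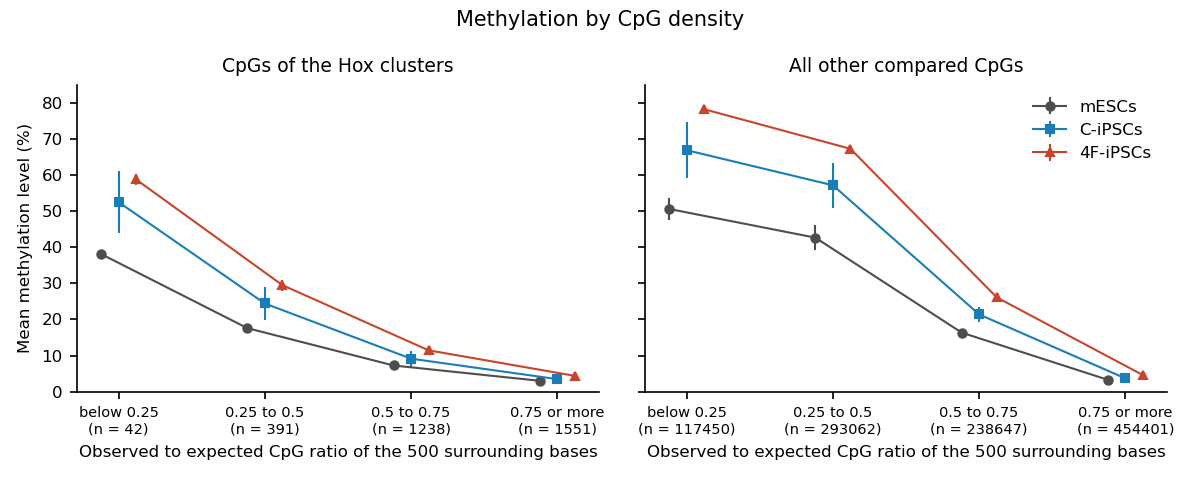
Mean methylation level (%) against the observed to expected CpG ratio in 4 classes, for Hox CpGs and for all other compared CpGs. Points are means of 2 libraries, bars are SD, and n is the number of CpGs. At 0.75 or more both sets are under 5%, while from 0.25 to 0.5 Hox CpGs reach 29.5% in 4F-iPSCs and the others 67.2%.

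Hox gene promoters were examined one by one. Of 39 Hox genes, 38 had at least 3 CpGs within 1 kb of their starts and a value in every library, and Hoxb8 lacked one. The median promoter was at 3.51% for mESCs, 3.56% for C-iPSCs, and 4.51% for 4F-iPSCs, and 29 of 38 were under 10% in 4F-iPSCs. The lowest of each cluster were those of Hoxa13, Hoxb4, Hoxc11 and Hoxd11, by the mean over the 6 libraries. Hoxb4 (chr11:96318267-96321638, plus strand, 32 CpGs), which acts in the hindbrain and trunk and in blood stem cells, had 2.17% and 1.16% for mESCs, 2.00% and 1.49% for C-iPSCs, and 2.39% and 2.06% for 4F-iPSCs. Hoxa13 (chr6:52257694-52260880, minus strand, 75 CpGs), a gene of the distal limb and the genital tract, had 2.09% and 1.67%, 1.81% and 2.21%, and 2.63% and 3.33%. Hoxc11 (chr15:102954427-102957708, plus strand, 43 CpGs) had 2.55% and 1.99%, 2.62% and 3.70%, and 2.35% and 4.46%. Hoxd11 (chr2:74682323-74684168, plus strand, 130 CpGs), which patterns the forearm and kidney together with Hoxa11, had 2.29% and 1.77%, 1.98% and 2.82%, and 2.09% and 3.23%. In the printed stretch of its promoter the 26 CpGs averaged between 1.71% and 4.02% in the 6 libraries. All these values are within or below the range of methylated calls on mitochondrial DNA.

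The most methylated promoters showed larger differences between the cell types. Hoxd4 (chr2:74721978-74729160, plus strand, 26 CpGs around 2 starts), a gene of the hindbrain and neck, had 20.7% and 25.9% for mESCs, 27.3% and 31.1% for C-iPSCs, and 33.1% and 36.9% for 4F-iPSCs. Hoxb3 (chr11:96323326-96347930, plus strand, 17 CpGs around 2 starts) had 13.9% and 15.8%, 19.6% and 23.0%, and 28.3% and 29.3%. In both, the libraries of the 3 cell types stood in the order mESCs, C-iPSCs, 4F-iPSCs without overlap. Hoxa3 (chr6:52169062-52213115, minus strand), whose only annotated start here lies upstream of Hoxa6, had 7.75% and 17.5%, 17.4% and 36.0%, and 35.0% and 28.0% at 3 CpGs, and the C-iPSC libraries overlapped both other cell types. Hoxc10 (chr15:102966796-102971893, plus strand, 25 CpGs), a gene of the lumbar spinal cord and hindlimb, had 10.5% and 12.3%, 13.4% and 20.9%, and 21.1% and 19.8%. C-iPSC replicate 2 was within the range of the 4F-iPSCs.

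Hoxa6 and Hoxd3 were the other promoters with at least 3 strongly hypermethylated CpGs. Hoxa6 (chr6:52206288-52208722, minus strand, 34 CpGs) had 12.8% and 13.4% for mESCs, 15.6% and 19.1% for C-iPSCs, and 22.7% and 22.2% for 4F-iPSCs. Hoxd3 (chr2:74711927-74748271, plus strand, 82 CpGs around 3 starts) had 9.87% and 11.1%, 13.5% and 17.0%, and 19.1% and 18.9%. Neither gene had an overlap between the cell types. Hoxd12 (43 CpGs, 13.03% ± 0.331 in mESCs and 22.8% ± 2.05 in 4F-iPSCs) and Hoxb1 (9 CpGs, 15.1% ± 0.434 and 22.6% ± 2.30) also exceeded 20% in 4F-iPSCs and were chosen after their values were seen. Of their paralogs, Hoxc12 was at 4.18% ± 2.35 and Hoxd1 at 4.39% ± 0.186 in 4F-iPSCs.

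**Figure D4:**
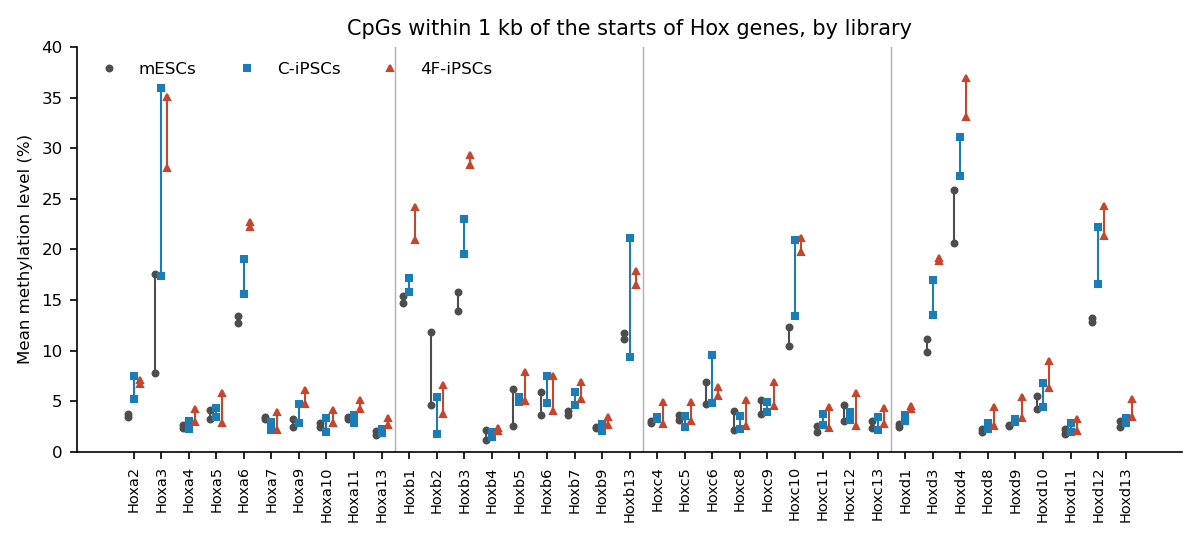
Mean methylation level (%) of the CpGs within 1 kb of the starts of the Hox genes shown, in each of the 6 libraries; vertical lines join the 2 libraries of a cell type and gray lines part the clusters. Most genes lie under 10% in all libraries, and Hoxd4 is highest in 4F-iPSCs with 35.0% ± 2.71.

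Both 4F-iPSC libraries were above both mESC libraries at 22 of 38 Hox promoters, 8 of 11 in HoxA, 5 of 9 in HoxB, 1 of 9 in HoxC and 8 of 9 in HoxD. Among all 14050 protein-coding promoters with 3 CpGs the share was 37.5%. Both C-iPSC libraries were above both mESC libraries at 13 Hox promoters (22.4% of all promoters), and both 4F-iPSC libraries were above both C-iPSC libraries at 12 (24% of all promoters). The HoxC promoters had a median of 3.43% in mESCs and 3.96% in 4F-iPSCs.

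Position along the body axis was tested by the paralog number of the nearest Hox gene. CpGs nearest to anterior genes (groups 1 to 3) had 6.78% and 6.98% for mESCs, 7.70% and 10.2% for C-iPSCs, and 10.4% and 11.6% for 4F-iPSCs. Those nearest to posterior genes (groups 9 to 13) had 6.86% and 6.59%, 7.37% and 10.1%, and 10.3% and 11.8%. The difference was -0.106 points, with a range from -0.393 to 0.215 (exact sign-flip p = 0.3125). It depended on the setting, with -0.777 points when group 4 was counted as anterior and -0.608 on the minus strand (exact sign-flip p = 0.03125 each), but 0.699 with pooled reads (p = 0.0625, exact sign-flip test). Single clusters did not follow one order. In 4F-iPSCs the posterior part of HoxB was at 19.2% ± 1.01 and the anterior part at 9.63% ± 1.10, while in HoxD the posterior part was at 8.11% ± 1.12 and the anterior part at 12.7% ± 0.550. HoxA had 8.26% ± 0.851 and 9.75% ± 1.10, and HoxC has no gene of groups 1 to 3. With the HoxB interval between Hoxb13 and Hoxb9 left out, the posterior minus anterior difference was -1.33 points (exact sign-flip p = 0.03125). Hoxa3 has 1 start in the annotation used, far from its coding exons. With CpGs given to the nearest coding sequence instead, also a setting chosen after the data were seen, the difference was 0.186 points (exact sign-flip p = 0.125).

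Single CpGs with a large difference were then counted. A CpG was strongly hypermethylated when its level was more than 33.3 points higher and the reads of both replicates together gave p under 0.05 in Fisher's exact test (two-sided, not adjusted). In 4F-iPSCs against mESCs this held for 78 of 3222 Hox CpGs (2.42%), beside 14.3% of all compared CpGs. In C-iPSCs against mESCs it held for 12 (0.372%), beside 2.88%. Between 4F-iPSCs and C-iPSCs no Hox CpG was called upward, beside 1.35% of all, but 7 were without C-iPSC replicate 2, 8 without 4F-iPSC replicate 1, 4 without 4F-iPSC replicate 2 and 1 without C-iPSC replicate 1. None was called lower in 4F-iPSCs than in mESCs, in C-iPSCs than in mESCs, or in 4F-iPSCs than in C-iPSCs, beside 0.0331%, 0.0367% and 0.0281% of all. The shares among Hox CpGs were below the background in each upward comparison. After Benjamini-Hochberg adjustment over all compared CpGs, 77 of the 78 and all 12 were below 0.05. A quasi-binomial test, which takes the spread between replicates into account, called 73 (13.1% of all compared CpGs) and 7 (1.48% of all).

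Fisher's test treats reads as independent, so it was set beside the replicates. Between the 2 replicates of a cell type, strong differences in either direction were found at 2 Hox CpGs for mESCs, 13 for C-iPSCs, and 8 for 4F-iPSCs. These are 0.0658%, 0.424% and 0.253% of the Hox CpGs with 10 reads in both replicates, beside 0.643%, 0.830% and 0.316% of all such CpGs. The 12 calls in C-iPSCs against mESCs were no more in number than the 13 between the C-iPSC replicates. The latter count both directions and compare single libraries with fewer reads, so the counts are not like for like. The 12 became 43 without C-iPSC replicate 1 and 24 without mESC replicate 2. Counts with a library left out, here and above, are given without the share of all compared CpGs. Such counts are therefore not read as particular to the Hox clusters. The 78 calls in 4F-iPSCs were more than between any replicates. Levels on the plus and minus strands differed strongly at 0 of 2481 Hox CpGs in mESCs, 3 of 2497 in C-iPSCs and 4 of 2525 in 4F-iPSCs, counting CpGs with 10 reads on both strands. A pair of them, both in Hotair, were among the 78.

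The calls were uneven over the clusters. HoxC had 21 of 630 CpGs called in 4F-iPSCs (3.33%), HoxB 25 of 764 (3.27%), HoxD 23 of 902 (2.55%) and HoxA 9 of 926 (0.972%). By position, 46 were promoter CpGs and 32 lay outside promoters. In promoters the share was 2.18%, beside 2.24% of all promoter CpGs compared, and outside promoters it was 2.88%, beside 27.4%. The called CpGs had a median level of 31.2% for mESCs, 56.6% for C-iPSCs, and 70.3% for 4F-iPSCs. They stood in CpG-poor DNA, with a median observed to expected ratio of 0.400 against 0.746 for the Hox CpGs not called. Of the 78, 56 had a ratio under 0.5, as 433 of all 3222 Hox CpGs did. In that DNA the share was lower than elsewhere, with 11.8% called at a ratio from 0.25 to 0.5 in the Hox clusters and 30.7% outside.

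Differences of any size past an adjusted p of 0.05 (Fisher's exact test, Benjamini-Hochberg over all compared CpGs) were also one-sided. In 4F-iPSCs against mESCs 329 Hox CpGs were higher and 2 lower, beside 32.8% and 0.229% of all compared CpGs. In C-iPSCs against mESCs 162 were higher and 7 lower, beside 17.8% and 0.251%. In 4F-iPSCs against C-iPSCs 120 were higher and 1 lower, beside 14.4% and 0.18%. In promoters alone the share higher in 4F-iPSCs than in mESCs was 7.63% for the Hox clusters and 5.93% for all promoter CpGs, so that the lower share of the Hox clusters lay outside promoters.

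Of the 78 strongly hypermethylated CpGs, 42 stood in 8 runs and 36 were scattered. The 8 runs are 0.0410% of the 19523 runs in the whole series, while Hox CpGs are 0.291% of the CpGs compared. No run was found in C-iPSCs against mESCs, which had 2180 in the whole series, or in 4F-iPSCs against C-iPSCs, which had 747. Without C-iPSC replicate 1 or without mESC replicate 2 the first of these comparisons had 4. HoxB had 3 runs, HoxC 2, HoxD 2 and HoxA 1. Runs were chosen by the levels of 4F-iPSCs and mESCs, so the values that follow describe them and are not tested.

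Hotair held the run with the most CpGs after that of Hoxd3. It is transcribed between Hoxc12 and Hoxc11 and is known for its part in gene silencing. The run (chr15:102945671-102945865) spans the boundary of an exon and an intron, and all its 9 measured CpGs were called. Its mean was 24.6% and 42.1% for mESCs, 52.3% and 68.4% for C-iPSCs, and 76.8% and 71.6% for 4F-iPSCs. The mESC libraries differed from each other by more than the 4F-iPSC libraries did. Of all reads on these CpGs, 32.0% were methylated in mESCs (95% Wilson interval 28.9% to 35.3%, 837 reads), 60.5% in C-iPSCs (57.6% to 63.3%, 1133 reads) and 74.8% in 4F-iPSCs (72.3% to 77.1%, 1285 reads). These intervals cover counting error only, and RRBS reads can be duplicates of 1 molecule. The strands disagreed at 2 of the 9 CpGs. At 102945762 the plus strand had 22.5%, 79.1% and 91.5% (mESCs, C-iPSCs and 4F-iPSCs) and the minus strand 0% in each, and at 102945818 the plus strand had 0%, 0% and 4.55% and the minus strand 31.3%, 62.9% and 73.2%. The cause was not tested, and the means of the run include these CpGs. The other 7 ranged from 31.5% to 46.2% in mESCs and from 69.3% to 88.5% in 4F-iPSCs.

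The longest run (chr2:74738736-74739232, 497 bp) lies in an intron of Hoxd3, 388 to 883 bases before one of its starts. Hoxd3 takes part in forming the first vertebrae. Of 16 measured CpGs 10 were called, and the run's mean was 25.5% and 29.4% for mESCs, 42.9% and 56.2% for C-iPSCs, and 65.8% and 62.6% for 4F-iPSCs. The reads gave 27.7% (25.8% to 29.7%, 2017 reads), 50.04% (48.0% to 52.1%, 2268 reads) and 65.7% (63.9% to 67.3%, 2905 reads). The 3 cell types did not overlap. The CpG at 74738861 had 5.51% in mESCs but 37.7% and 55.1% in the iPSCs (C-iPSCs first), and that at 74738757 from 10.2% to 49.5% and 69.2%, the latter being the largest difference of all Hox CpGs (59.0 points). The other HoxD run (chr2:74721978-74722120) begins at a start of Hoxd4 and lies within its first, untranslated exon, so its sequence is not printed. Its 3 CpGs had means of 31.0% and 53.2%, 66.3% and 73.1%, and 82.9% and 85.9%.

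The HoxA run (chr6:52209440-52209646) lies 718 to 923 bases upstream of Hoxa6, inside introns of the long transcripts Hoxa3, Gm28308 and Hoxaas3. All 5 CpGs were called. Its mean was 36.8% and 41.3% for mESCs, 61.6% and 64.5% for C-iPSCs, and 78.3% and 74.6% for 4F-iPSCs. Here the replicates lay close together and the cell types far apart.

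The 3 HoxB runs all lie in the interval between Hoxb13 and Hoxb9. The first (chr11:96231310-96231406, 5 of 5 CpGs called) is intergenic, 37072 bases from the start of Hoxb13 at its middle CpG, and had 39.6% and 51.5% for mESCs, 72.7% and 78.2% for C-iPSCs, and 89.8% and 84.6% for 4F-iPSCs. The second (chr11:96248802-96248933, 4 of 4) lies in Gm11539, a processed pseudogene, and had 5.60% and 19.0%, 22.3% and 38.8%, and 65.5% and 48.6%. It rests on 200, 232 and 376 reads, and reads of a pseudogene's parent gene could map there in part, although only unique pairs were kept. The third (chr11:96269155-96269212, 3 of 3) lies 2288 bases upstream of Hoxb9 at its middle CpG and had 28.5% and 34.9%, 58.2% and 62.7%, and 71.3% and 69.5%. All 3 had the order mESCs, C-iPSCs, 4F-iPSCs without overlap. Together the interval held 16 of the 25 HoxB calls.

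The second HoxC run (chr15:102965813-102966132, 3 of 6 CpGs called) lies 665 to 983 bases upstream of Hoxc10. Its mean was 27.9% and 26.2% for mESCs, 40.4% and 53.2% for C-iPSCs, and 63.3% and 55.9% for 4F-iPSCs. Of the 8 runs it had the smallest difference between 4F-iPSCs and mESCs, and C-iPSC replicate 2 nearly reached 4F-iPSC replicate 2.

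**Figure D5:**
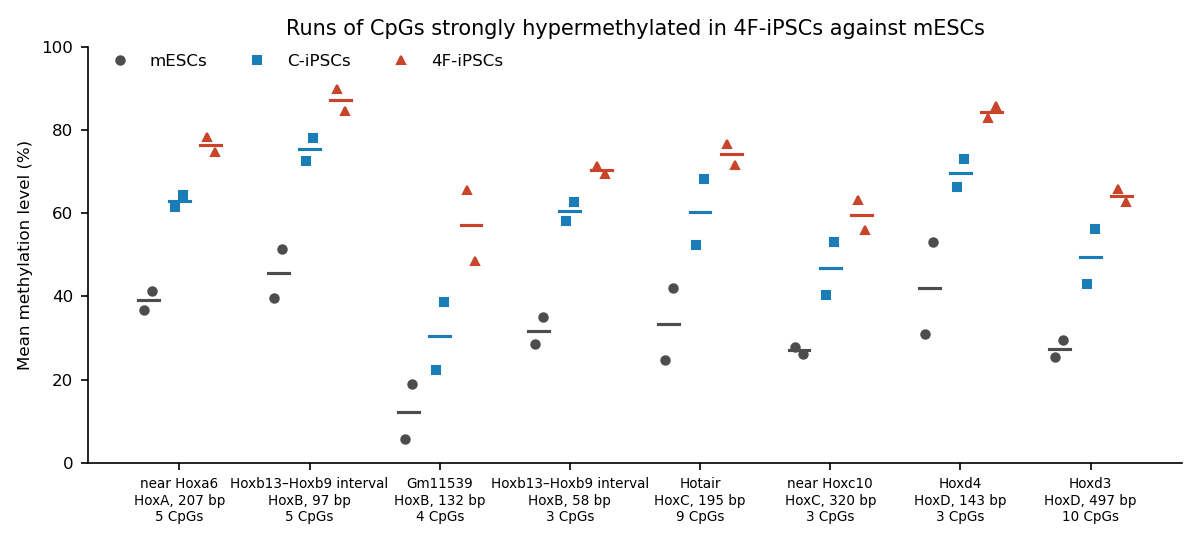
Mean methylation level (%) of the measured CpGs in each of the 8 runs, in each library; points are libraries, bars are the means of 2 libraries of a cell type, and labels give the gene or place, the length and the number of CpGs called. In every run both C-iPSC libraries lie between the mESC and the 4F-iPSC libraries.

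All 12 CpGs called in C-iPSCs against mESCs were also called in 4F-iPSCs, a count that rests on the same mESC libraries. Seen from 4F-iPSCs, only 12 of the 78 calls were shared. By the paper's counts over all compared CpGs, too, most of those strongly hypermethylated in C-iPSCs were shared with 4F-iPSCs. Most of those strongly hypermethylated in 4F-iPSCs were not shared. The overlap is therefore not read as particular to the Hox clusters. The 12 CpGs were 5 in HoxB, 3 in HoxC, 4 in HoxD and 0 in HoxA. The largest difference was at chr2:74729496, in introns of Hoxd3 and Gm28230, with 47.2% for mESCs, 89.6% for C-iPSCs, and 84.3% for 4F-iPSCs, but on 36, 48 and 51 reads. At higher depth, chr2:74674722, 291 bases upstream of Hoxd12, had 15.3% (118 reads), 55.8% (156 reads) and 60.4% (159 reads), and chr15:102962640, upstream of Hoxc10, had 26.5% (147 reads), 64.6% (206 reads) and 65.8% (240 reads).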

How the data were processed

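DNA methylation was measured by reduced representation bisulfite sequencing (RRBS) in 2 libraries each of mESCs, C-iPSCs and 4F-iPSCs. The authors digested DNA with MspI, used BSMAP 2.90 for alignment against mm10 and MOABS for methylation calls, dropped pairs with more than 1 hit, and deposited per CpG the count of all reads and of methylated reads. The deposited fraction of methylated reads was used only as a check, and differed from the quotient of the counts by at most 0.0005. Fields of the files other than the counts, by strand and in total, and this fraction were not used.

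Libraries held 53694199 to 96534037 reads on CpGs. Levels were computed per library over CpGs with 10 reads, or from reads summed over the replicates for single CpGs. All 1531304 positions on assembled chromosomes were CG in the GRCm38 sequence. Promoters, exons and introns came from GENCODE vM21 basic, and mm10 equals GRCm38. Means of cell types were compared by a two-sided exact permutation test, and sets of CpGs by an exact sign-flip test over the 6 libraries. Single CpGs were tested by Fisher's exact test over all compared CpGs, with Benjamini-Hochberg adjustment where stated, and by a quasi-binomial model with dispersion shrunken in limma 3.58.1 (R 4.3.3). Python 3.11.15, SciPy 1.17.1 and statsmodels 0.14.6 were used, and the tests were tested on simulated data. Alternatives were other read minimums, strands, thresholds, windows, flanks, run rules and leaving out each library. The genes named with full values were, in each cluster, the highest and lowest promoter, each promoter with at least 3 strong CpGs, and each run. The members, lists and rules were chosen with earlier results of these data known. Of the 39 Hox genes, 1 is counted but not reported here by itself.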

Additional observations from a re-analysis of the deposited data

How the results depend on the processing

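The 210 recomputed values of mean level by cell type come from a test that cannot pass its threshold with 2 libraries against 2, so they say nothing of stability. With 1 library left out, C-iPSCs minus mESCs ranged from 0.626 to 3.202 points, 4F-iPSCs minus mESCs from 3.21 to 4.74, and 4F-iPSCs minus C-iPSCs from 0.720 to 3.325, and in HoxC the last was down to 0.0790. Of the 257 other values 178 kept their direction and their side of the threshold or, for counts, stayed within 1.5 times the main count. The cause of the other changes was not tested except where stated. With 1 library left out, an exact sign-flip test over 5 libraries cannot go below 0.0625, so differences lost their call by construction and not by direction: HoxA minus HoxB ranged from -3.79 to -3.43, HoxA minus HoxC from -2.77 to -2.44, HoxA minus HoxD from -1.73 to -1.43, HoxB minus HoxD from 1.78 to 2.37, HoxC minus HoxD from 0.858 to 1.18, promoter minus other CpGs from -5.88 to -5.30 (but -2.02 with promoters from 2 kb before to 0.5 kb after a start) and flanks minus windows from 8.82 to 9.89. Strong calls then ranged from 8 to 43 in C-iPSCs against mESCs (24 without mESC replicate 2) and from 0 to 8 in 4F-iPSCs against C-iPSCs, with runs from 0 to 4 and from 0 to 1. In 4F-iPSCs against mESCs the calls ranged from 62 without mESC replicate 1 to 98 without 4F-iPSC replicate 2, with runs from 7 to 10. These counts have no share of all compared CpGs beside them.

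With 1 library left out, HoxB minus HoxC ranged from 0.690 to 1.355. HoxB minus HoxC became 0.949 at 5 reads, 2.37 with pooled reads, 1.21 at CpGs with 10 reads in all libraries and 1.41 on the minus strand, each past the threshold. HoxC minus HoxD became 0.464 with pooled reads and 0.280 on the plus strand, no longer past it. The posterior minus anterior difference became 0.699 with pooled reads, -0.608 on the minus strand and -0.777 with group 4 as anterior, the last 2 past the threshold (exact sign-flip p = 0.03125), so its sign depended on the setting. Settings chosen after seeing the data gave 0.186 for that difference by nearest coding sequence, and, without the interval between Hoxb13 and Hoxb9, -1.33 for it, -1.52 for HoxB minus HoxC and -0.505 for HoxB minus HoxD, and, outside promoters, -0.00889 for HoxA minus HoxC, -1.74 for HoxB minus HoxD and -2.77 for HoxC minus HoxD. HoxA minus HoxB was -1.16 without the interval between Hoxb13 and Hoxb9 and -1.04 outside promoters. HoxA minus HoxC was -1.65 with pooled reads. At 5 reads 1 CpG was lower in C-iPSCs than in mESCs and 1 was called upward from C-iPSCs to 4F-iPSCs. Both counts are given without the share of all compared CpGs. A difference above 25 points gave 53 upward calls in C-iPSCs and 150 in 4F-iPSCs against mESCs (8.37% and 23.2% of all compared CpGs) and 6 upward and 1 downward in 4F-iPSCs against C-iPSCs (3.76% and 0.0660% of all), and one above 50 points gave 0 and 5 against mESCs (0.316% and 2.53% of all). The quasi-binomial test called 7 in C-iPSCs against mESCs (1.48% of all). Runs of at least 5 CpGs numbered 4, given without their number in the whole series.

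Replicate numbers did not pair the libraries: the replicate differences of cell types correlated at 0.041, -0.226 and 0.118. With the replicate number as a block, 12 and 78 strong calls were found against mESCs and 1 in 4F-iPSCs against C-iPSCs. These counts, too, have no share of all compared CpGs beside them. A block cannot change the mean differences of 1.87, 3.96 and 2.08 points (exact sign-flip p = 0.5, the smallest for 2 pairs).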
